A study of Mus musculus with 16 samples.

Results

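The genes described here encode the sealing and pore-forming proteins of the epithelial tight junction: the claudins Cldn2, Cldn3, Cldn4, Cldn7, Cldn8, Cldn15 and Cldn23, occludin (Ocln), the scaffold protein Tjp1 and the junctional adhesion molecule F11r. Every probe whose platform gene symbol is one of these 10 genes was taken, which gave 13 of the 25697 probes on the array, 3 of them for Cldn15 and 2 for Cldn8. The samples were whole colons of C57Bl/6J males, whose total RNA was read on Illumina 1-colour bead arrays. The groups were Dextran Sulfate Sodium with Methylthioadenosine (DSS + MTA, n = 6), Dextran Sulfate Sodium alone (DSS, n = 6) and untreated mice (Control, n = 4). DSS damages the colonic epithelium and is used to model colitis, and MTA is a nucleoside made from S-adenosylmethionine. Both DSS groups carry the DSS, and MTA was not given here without it. The labels give no dose, days of treatment or age. Nothing in them says that each sample is a separate animal, so p-values measure the spread between these 16 samples, which may in part be technical.

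Tight junctions seal the space between epithelial cells near their luminal surface. Claudins form the strands: Cldn3, Cldn4, Cldn7 and Cldn8 are mainly described as sealing claudins in the gut, while Cldn2 and Cldn15 form channels that let small cations and water pass between cells. Occludin and F11r are membrane proteins of the same junction, and Tjp1 (the zonula occludens scaffold) ties the strands to the actin cytoskeleton. In the gut Cldn2 is prominent in crypts, and changes of claudins are a known feature of colitis.

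The promoters of the 5 claudins on which the results turn are shown so that the genes that moved or varied can be set side by side. They come from RefSeq (GRCm38.p6), cover 300 bases around the annotated start of the gene, most of them before it, and are written on the strand of the gene. Capitals mark TTTAT (the core bound by CDX factors), TATAAA (the TATA box), GGGCGG (the GC box) and CACCTG (an E-box), each searched on both strands. Cldn2 lies at chrX:139800558-139800857 (+), Cldn15 at chr5:136967619-136967918 (+), Cldn3 at chr5:134985964-134986263 (+), Cldn7 at chr11:69964529-69964828 (+) and Cldn4 at chr5:134946885-134947184 (-).
Cldn2: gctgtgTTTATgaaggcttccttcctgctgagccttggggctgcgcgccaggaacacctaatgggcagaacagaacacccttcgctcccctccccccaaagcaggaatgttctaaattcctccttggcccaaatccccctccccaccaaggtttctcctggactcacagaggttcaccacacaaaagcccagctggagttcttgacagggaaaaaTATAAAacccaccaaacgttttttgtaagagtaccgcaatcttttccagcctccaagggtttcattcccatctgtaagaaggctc
Cldn15: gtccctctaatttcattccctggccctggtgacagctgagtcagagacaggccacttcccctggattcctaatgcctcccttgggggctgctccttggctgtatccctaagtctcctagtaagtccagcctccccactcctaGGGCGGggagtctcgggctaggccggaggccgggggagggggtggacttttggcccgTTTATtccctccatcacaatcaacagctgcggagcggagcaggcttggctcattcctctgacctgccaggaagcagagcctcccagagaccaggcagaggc
Cldn3: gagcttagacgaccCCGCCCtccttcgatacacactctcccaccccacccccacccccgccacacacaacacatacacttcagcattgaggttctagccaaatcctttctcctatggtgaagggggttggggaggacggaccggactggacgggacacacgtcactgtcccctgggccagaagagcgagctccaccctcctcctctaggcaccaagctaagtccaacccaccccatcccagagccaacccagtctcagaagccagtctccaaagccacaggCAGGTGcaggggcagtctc
Cldn7: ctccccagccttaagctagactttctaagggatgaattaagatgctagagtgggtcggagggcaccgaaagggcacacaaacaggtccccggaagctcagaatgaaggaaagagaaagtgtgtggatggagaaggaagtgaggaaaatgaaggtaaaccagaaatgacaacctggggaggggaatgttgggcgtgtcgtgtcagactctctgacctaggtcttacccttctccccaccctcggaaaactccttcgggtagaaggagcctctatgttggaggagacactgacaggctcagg
Cldn4: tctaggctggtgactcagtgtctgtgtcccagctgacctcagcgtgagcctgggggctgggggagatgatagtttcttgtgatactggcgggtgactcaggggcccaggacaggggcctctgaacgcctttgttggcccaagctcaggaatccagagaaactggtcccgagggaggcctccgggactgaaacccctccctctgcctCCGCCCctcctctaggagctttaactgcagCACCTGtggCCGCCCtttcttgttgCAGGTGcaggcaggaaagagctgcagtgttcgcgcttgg
TTTAT was found in the windows of Cldn2, at -244 and again on the opposite strand at -34, where it overlaps the TATAAA at -35, and of Cldn15, at -51. It occurs in 40.0% of the 32851 RefSeq windows of this length, and TATAAA in 13.6%. GGGCGG was found in Cldn15, Cldn3 and, at 2 places, Cldn4, against 35.7% of all windows. CACCTG was found in Cldn3 and, at 2 places, in Cldn4, against 20.2% of all windows. The Cldn7 window, 1 of 2 listed for that gene, held none of these letters. Searches for GTTAAT (7.10% of all windows), AGATAA (11.2%) and CAAAGTCC (1.42%) found no match in any of the 5 windows. Windows were available for 8 of the 10 genes, with none for Cldn8 and Cldn23.

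All levels below are log2 of the deposited intensity of one probe, so levels of different genes cannot be compared. Differences were tested with limma on the 12848 probes with the highest mean (50% of all), and a difference was called at a Benjamini-Hochberg adjusted p under 0.05 over all of them. Array medians ran from 112.012 to 112.22 on the linear scale, and correlations between arrays of one group from 0.910 to 0.991. Among the tested probes were 13 of 15 epithelial, 10 of 10 smooth muscle, 6 of 14 leukocyte and 3 of 8 enteric neuron and glia markers. Being tested reflects brightness only and does not identify the tissue. The mean of the epithelial markers was 12.58 ± 0.09 in DSS + MTA (SD, n = 6), 12.53 ± 0.15 in DSS (n = 6) and 12.43 ± 0.20 in Control (n = 4). It differed by 0.0975 between DSS and Control (two-sided exact permutation p = 0.386), by 0.0542 between DSS + MTA and DSS (exact p = 0.455) and by 0.152 between DSS + MTA and Control (exact p = 0.133). The last of these came to 0.242 without Control replicate 1 (exact p = 0.0119). In whole tissue, fewer cells of a type and less RNA per cell cannot be told apart.

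4 arrays stood apart from the other 12 in the mean of the colon position genes, a split made after the data had been seen. The mean of 7 tested homeobox and related genes that mark position along the colon was 7.38 in DSS replicate 2, 7.53 in DSS + MTA replicate 5, 7.64 in DSS replicate 6 and 7.75 in DSS + MTA replicate 2. The other 12 arrays lay between 8.36 and 8.84. No Control array was among the 4. For Cldn2 and Cldn15 the differences of all comparisons are given with and without these arrays. For Cldn7 those of DSS against Control and of DSS + MTA against DSS are given both ways. For Cldn3, Cldn4 and Ocln only that of DSS against Control is. Which of them to give was decided once their values were known.

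Cldn7, a claudin that also lies along the lateral membranes of colonic epithelial cells, was lower in DSS than in Control and higher in DSS + MTA than in DSS. Its probe read 10.48, 10.32, 10.28, 10.57, 10.66 and 10.48 in the 6 DSS + MTA arrays. It read 10.21, 9.86, 10.21, 9.95, 10.02 and 10.02 in the 6 DSS arrays, and 10.29, 10.48, 10.32 and 10.32 in the 4 Control arrays. Every DSS array lay below every DSS + MTA array and below every Control array, while the DSS + MTA and Control arrays overlapped. Non-overlap was found in 15.2% of all tested probes between DSS and Control and in 0.848% between DSS + MTA and DSS. The level in DSS fell by 0.31 ± 0.09 (SE) against Control on the log2 scale, a 0.808-fold level (limma adjusted p = 0.0404). In DSS + MTA it rose by 0.42 ± 0.08 against DSS, or 1.34-fold (limma adjusted p = 0.0426). DSS + MTA and Control differed by 0.11 ± 0.09 (limma adjusted p = 0.534). The first 2 of these differences share the DSS arrays. Both calls lay close to the threshold. Leaving out single arrays ended the call of DSS against Control in 9 of 16 fits (DSS + MTA replicate 1, DSS replicates 2, 4, 5 and 6, or any Control array; adjusted p 0.0503 to 0.117). It ended the call of DSS + MTA against DSS in 13 of 16 fits, all but those without DSS + MTA replicate 2, DSS replicate 1 or DSS replicate 6, with differences of 0.38 to 0.46 and adjusted p of 0.0538 to 0.109 where it was lost. Each of the 2 calls was also lost in 7 of 15 other settings (adjusted p 0.0505 to 0.0931 for DSS against Control and 0.0567 to 0.278 for DSS + MTA against DSS). Among them, without the 4 arrays low in colon position genes DSS differed from Control by -0.26 ± 0.10 (limma adjusted p = 0.0931) and DSS + MTA from DSS by 0.36 ± 0.10 (adjusted p = 0.0576).

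Cldn3, another sealing claudin, was lower in DSS than in Control. Its levels were 12.42, 12.79, 12.62, 12.57, 12.45 and 12.56 in DSS + MTA. In DSS they were 12.29, 12.23, 12.02, 12.13, 12.27 and 12.51, and in Control 12.77, 12.57, 12.56 and 12.37. DSS replicate 6 was the one DSS array inside the Control range. The level in DSS fell by 0.32 ± 0.10 against Control, a 0.799-fold level (limma adjusted p = 0.0498). In DSS + MTA the difference from DSS was 0.33 ± 0.09 (limma adjusted p = 0.141), with 4 of 6 DSS + MTA arrays above every DSS array, and it was not called. The DSS + MTA and Control means, 12.57 and 12.57, differed by 0.00154 ± 0.10 (limma adjusted p = 0.996). The Cldn3 call was lost in 13 of the 16 fits without 1 array, all but those without DSS + MTA replicate 2, DSS replicate 6 or Control replicate 4, at adjusted p of 0.0544 to 0.149. It was lost as well in 7 of 15 other settings, at 0.0555 to 0.0904, and kept without the 4 arrays low in colon position genes (-0.39 ± 0.10, limma adjusted p = 0.0217). Across the 16 arrays Cldn3 and Cldn7 correlated at r = 0.490, but the deviations from their group means at -0.357.

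Cldn4, described as a barrier claudin, moved the other way from Cldn3 and Cldn7 and had the largest called change of these genes. It read 10.82, 11.17, 10.65, 10.87, 11.67 and 10.89 in DSS + MTA. In DSS it read 11.06, 11.99, 10.64, 11.16, 10.89 and 12.05, and in Control 10.64, 10.65, 9.38 and 9.60. The Control arrays fell into a higher and a lower pair, and DSS replicate 3 and DSS + MTA replicate 3 lay beside the higher pair. The highest DSS values came from replicates 2 and 6 and the highest DSS + MTA values from replicates 5 and 2. These are the 4 arrays low in colon position genes. The level in DSS rose by 1.23 ± 0.32 against Control, or 2.34-fold (limma adjusted p = 0.0183). DSS + MTA and DSS differed by -0.29 ± 0.28 (limma adjusted p = 0.652), and DSS + MTA and Control by 0.94 ± 0.32 (adjusted p = 0.0998). The call of DSS against Control was lost without Control replicate 3 (1.0, adjusted p = 0.0772), without Control replicate 4 (1.07, adjusted p = 0.0673) and with the mean of the smooth muscle markers as a covariate (1.01, adjusted p = 0.0504). That mean ran from 11.62 to 12.58 in DSS and from 11.43 to 11.92 in Control. Without the 4 arrays low in colon position genes the difference was 0.87 (adjusted p = 0.0398). Of the squamous epithelium markers 2 of 10 were among the tested probes, and their mean ran from 7.42 to 8.40 in DSS + MTA, from 7.43 to 8.36 in DSS and from 7.13 to 7.50 in Control. One of them, Sprr1a, a cornified envelope protein, rose by 0.91 ± 0.27 in DSS (limma adjusted p = 0.0356), and its part in the Cldn4 result was not tested.

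Cldn8, a sealing claudin of the distal colon, was dim on both of its probes and was not among the tested ones. The first probe read 6.50 ± 0.34 in DSS + MTA, 6.56 ± 0.21 in DSS and 6.56 ± 0.21 in Control. The second read 6.08 ± 0.16, 6.06 ± 0.17 and 6.03 ± 0.17 in the same groups (SD, n = 6, 6 and 4). In all 3 groups the means of the 2 probes were below the lowest mean level of a tested probe, 6.82. With every probe of the array tested, the limma adjusted p of the 2 probes ran from 0.896 to 0.994 over the 3 comparisons. At this level no difference between groups was detectable.

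**Figure D1:**
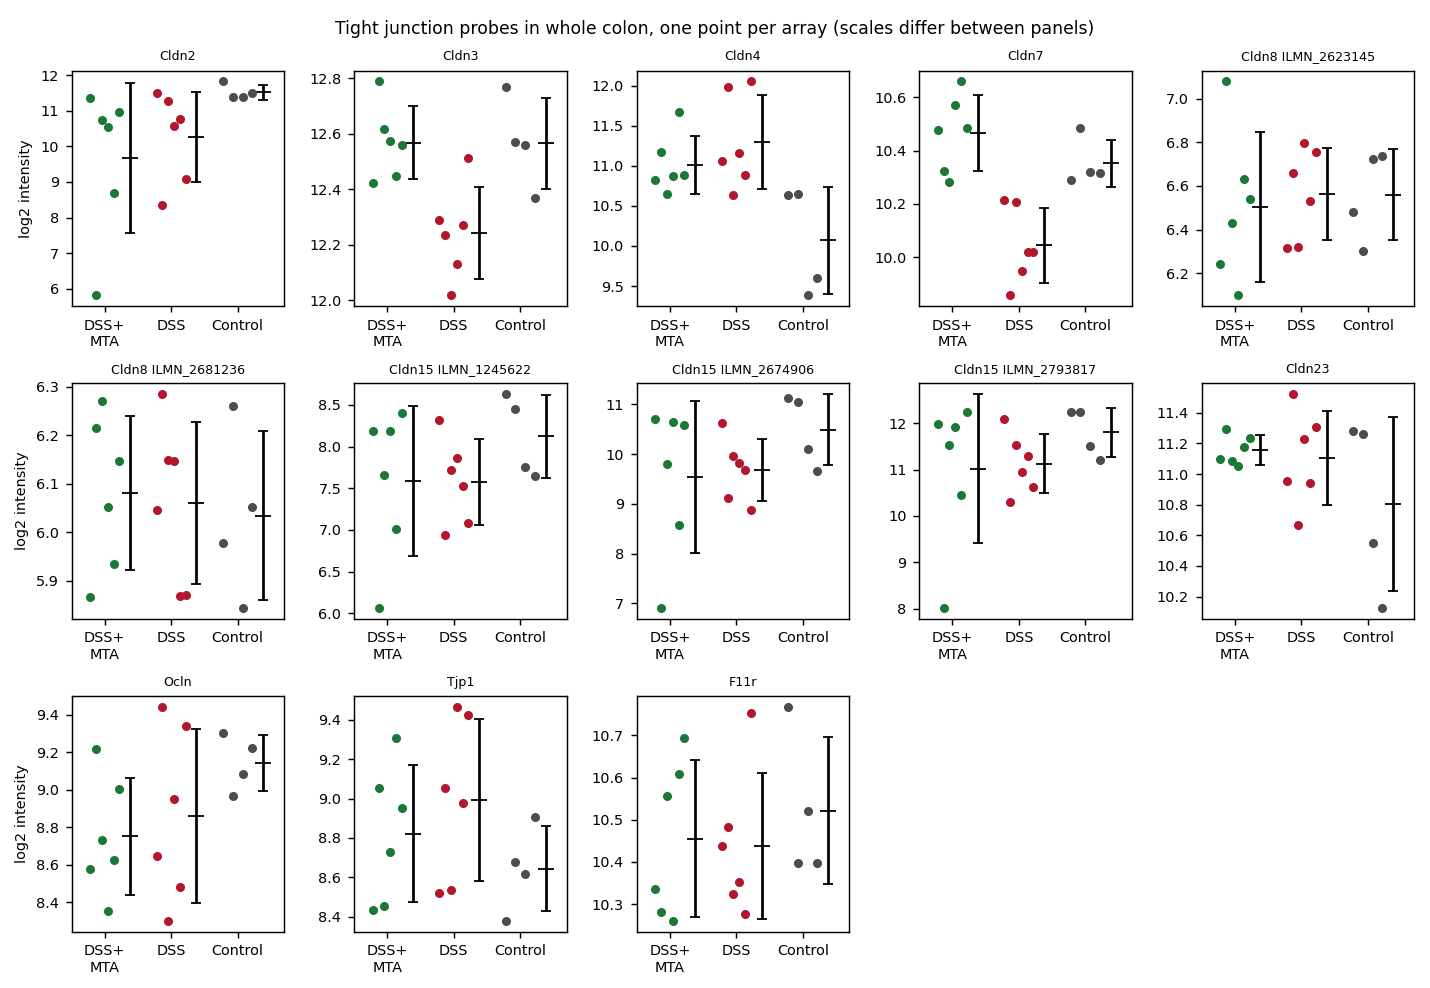
Log2 intensity (vertical axis) of each of the 13 probes on every array, by group (DSS + MTA, DSS, Control), with the mean and SD beside the points. Cldn7 in all 6 DSS arrays lies below the other groups, while Cldn2 is spread from 5.81 to 11.36 in DSS + MTA and from 11.38 to 11.83 in Control.

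Cldn2, the channel-forming claudin of crypts, was the most variable of the tested genes here and was not called in any comparison. Its probe read 11.36, 5.81, 10.73, 10.55, 8.68 and 10.96 in DSS + MTA. It read 11.51, 8.34, 11.27, 10.57, 10.76 and 9.08 in DSS, and 11.83, 11.38, 11.40 and 11.50 in Control. The 4 low values came from DSS + MTA replicates 2 and 5 and DSS replicates 2 and 6, the arrays with the lowest colon position genes, and DSS + MTA replicate 2, at a linear intensity of 56.2, lay below the array median. The groups averaged 9.68 ± 2.11 in DSS + MTA, 10.26 ± 1.26 in DSS and 11.53 ± 0.21 in Control. Every DSS + MTA array lay below every Control array, with a difference of -1.84 ± 0.89 (limma adjusted p = 0.256), and non-overlap of this kind was found in 7.90% of all tested probes. The difference between DSS and Control was -1.27 ± 0.89 (adjusted p = 0.354), with 5 of 6 DSS arrays below every Control array, and that between DSS + MTA and DSS -0.57 ± 0.80 (adjusted p = 0.758). Without the 4 arrays the difference from Control was -0.63 ± 0.22 in DSS + MTA (adjusted p = 0.146) and -0.50 ± 0.22 in DSS (adjusted p = 0.149). Between DSS + MTA and DSS it was then -0.13 (adjusted p = 0.790).

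Cldn15, the second channel-forming claudin, followed Cldn2 from array to array on all 3 of its probes. The brightest probe, ILMN_2793817, read 11.98, 8.01, 11.54, 11.91, 10.45 and 12.24 in DSS + MTA. In DSS it read 12.08, 10.30, 11.52, 10.95, 11.30 and 10.62, and in Control 12.24, 12.25, 11.52 and 11.21. DSS + MTA replicate 2 was again the lowest array, and the groups overlapped. Control replicates 3 and 4 lay below Control replicates 1 and 2 on all 3 probes. The 3 probes differed by -0.55 ± 0.40, -0.81 ± 0.63 and -0.67 ± 0.64 between DSS and Control (limma adjusted p = 0.376, 0.406 and 0.502, in the order ILMN_1245622, ILMN_2674906, ILMN_2793817). Between DSS + MTA and Control they differed by -0.53, -0.95 and -0.78 (adjusted p = 0.484, 0.414 and 0.530), and between DSS + MTA and DSS by 0.01, -0.14 and -0.11 (adjusted p = 0.990, 0.925 and 0.948). Without the 4 arrays low in colon position genes, the 3 probes differed by -0.27, -0.47 and -0.34 between DSS and Control. They then differed by 0.26, 0.42 and 0.45 between DSS + MTA and DSS and by -0.0084, -0.05 and 0.11 between DSS + MTA and Control (limma adjusted p = 0.599, 0.515 and 0.380, then 0.990, 0.958 and 0.873). Without DSS + MTA replicate 2 alone, ILMN_2793817 differed by 0.49 between DSS + MTA and DSS and by -0.18 between DSS + MTA and Control. The size of the Cldn15 differences between DSS + MTA and the other groups thus depended on these arrays. For ILMN_2674906 against DSS and for ILMN_2793817 against both groups the sign did as well. The Cldn15 probes correlated with each other at r = 0.953 to 0.979 and with Cldn2 at 0.898 to 0.934 over the 16 arrays, values given as a description of arrays that share their RNA and processing. Without the 4 low arrays the correlation of Cldn2 with the Cldn15 probes was 0.391 to 0.440 over 12 arrays, so most of it rests on those arrays.

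**Figure D2:**
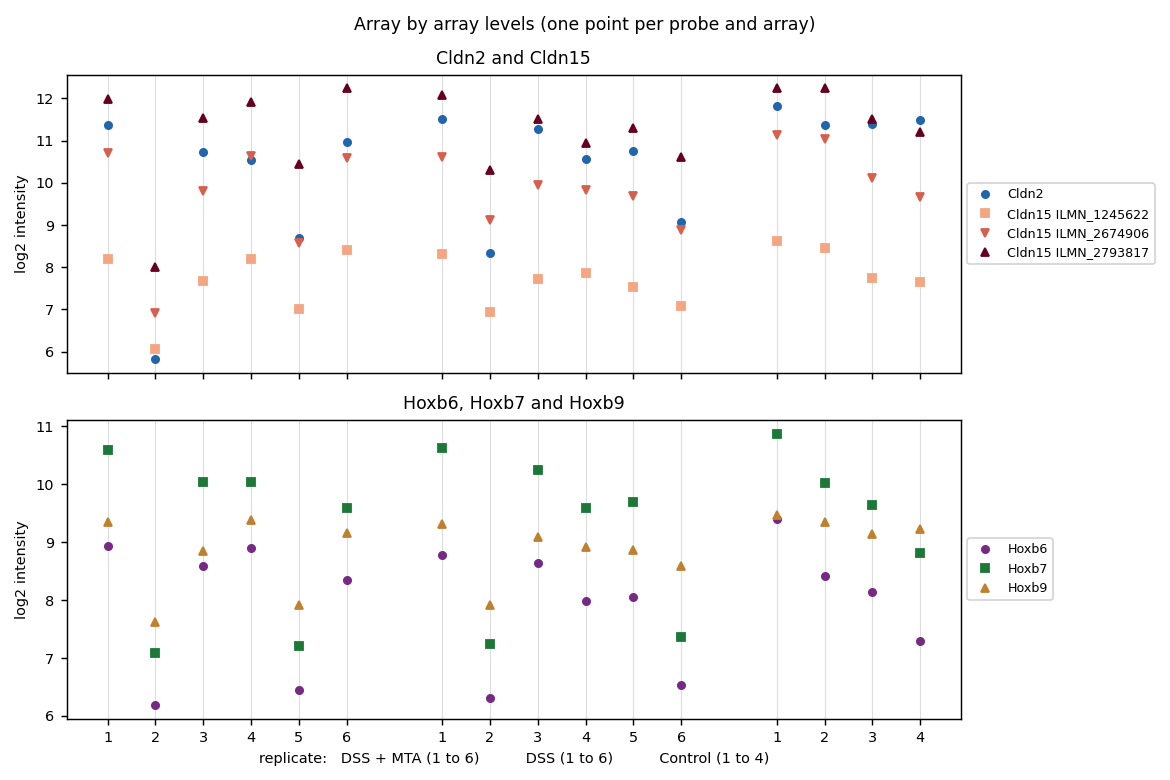
Log2 intensity (vertical axis) of Cldn2, the 3 Cldn15 probes and 3 colon position genes on each array (horizontal axis, replicates of DSS + MTA, DSS and Control). Hoxb6, Hoxb7 and Hoxb9 are lowest on the same 4 arrays as Cldn2, with Hoxb7 at 7.10 and 7.21 in DSS + MTA replicates 2 and 5 and at 7.24 and 7.36 in DSS replicates 2 and 6. Other colon position genes, not drawn, were not lowest on exactly these arrays.

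3 of the 7 colon position genes, Hoxb6, Hoxb7 and Hoxb9, were lowest on exactly these 4 arrays, and others of the list were not. The mean of the list thus averages genes that did not all fall on these arrays. Levels by array are given here for only 6 of the 7. The arrays were picked by the mean of the 7 genes, so low values of these genes there follow in part from the choice. Hoxd10 read 10.72 in DSS + MTA replicate 2, its highest DSS + MTA value. It was low, at 7.35, 8.51 and 8.26, in DSS replicates 2 and 6 and DSS + MTA replicate 5, and read 8.29 in DSS + MTA replicate 6. Hoxd9 had its lowest values, 6.84, 6.66 and 6.84, in DSS replicates 2 and 6 and DSS + MTA replicate 5. In DSS + MTA replicate 2 it read 7.36. Hoxa9 read 7.80 in DSS replicate 2 and 7.92 in DSS + MTA replicate 5, among its higher values. Hoxb7, expressed along the colon in a graded way, read 7.10 and 7.21 in DSS + MTA replicates 2 and 5 and between 9.59 and 10.59 in the other DSS + MTA arrays. It read 7.24 and 7.36 in DSS replicates 2 and 6, between 9.59 and 10.62 in the other DSS arrays and between 8.81 and 10.88 in Control. None of the 7 tested colon position genes was called in any comparison. Cdx2, the intestinal transcription factor, named after its values were seen, read 8.68 in DSS + MTA replicate 2 and between 11.47 and 13.36 in all other arrays. Its group means did not differ by a called amount (0.06 ± 0.71 between DSS and Control, limma adjusted p = 0.967).

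Occludin, a membrane-spanning protein of the strand, was not called in any comparison over all 16 arrays. Its lowest, median and highest levels were 8.35, 8.68 and 9.22 in DSS + MTA and 8.30, 8.80 and 9.44 in DSS. The Control arrays read 9.31, 8.97, 9.08 and 9.22, within the DSS range and, for replicates 1 and 4, above every DSS + MTA array. DSS replicates 2 and 6, the 2 DSS arrays low in colon position genes, held the highest DSS values. The difference was -0.29 ± 0.21 for DSS against Control (limma adjusted p = 0.384), -0.11 ± 0.19 for DSS + MTA against DSS (adjusted p = 0.817) and -0.39 ± 0.21 for DSS + MTA against Control (adjusted p = 0.314). Without the 4 arrays low in colon position genes, Ocln in DSS fell by 0.55 ± 0.16 against Control (limma adjusted p = 0.0350). No other setting run called Ocln in any comparison. For DSS + MTA against Control the lowest limma adjusted p over all settings was 0.0585.

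Cldn23, a claudin of the differentiated surface epithelium, had values of 11.10, 11.29, 11.08, 11.05, 11.17 and 11.24 in DSS + MTA. In DSS they were 10.96, 11.52, 10.67, 11.23, 10.94 and 11.31, and in Control 11.28, 11.26, 10.55 and 10.13. The Control arrays divided as they had for Cldn4 and Cldn15, replicates 3 and 4 lying low. The differences were 0.30 ± 0.20 for DSS against Control, 0.05 for DSS + MTA against DSS and 0.35 ± 0.20 for DSS + MTA against Control (limma adjusted p = 0.335, 0.912 and 0.344). Without Control replicate 4 the differences from Control were 0.07 in DSS and 0.13 in DSS + MTA. Cldn4 and Cldn23 correlated at r = 0.797 over the 16 arrays and at 0.817 within groups.

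F11r, the junctional adhesion molecule, ran from 10.26 to 10.69 in DSS + MTA, from 10.28 to 10.75 in DSS and from 10.40 to 10.77 in Control. Its differences were small, at -0.08 ± 0.12 for DSS against Control, 0.02 ± 0.10 for DSS + MTA against DSS and -0.07 ± 0.12 for DSS + MTA against Control (limma adjusted p = 0.662, 0.954 and 0.804). Tjp1 ran from 8.43 to 9.31 in DSS + MTA, from 8.52 to 9.46 in DSS and from 8.38 to 8.90 in Control. Its differences were 0.35 ± 0.21 for DSS against Control, -0.17 for DSS + MTA against DSS and 0.18 for DSS + MTA against Control (limma adjusted p = 0.275, 0.690 and 0.684). The groups overlapped for both genes in all 3 comparisons.

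Set against all tested probes, the counts were as follows. Between DSS and Control 3 of the 11 tested probes were called, 1 higher (Cldn4) and 2 lower (Cldn3 and Cldn7), while 13.8% of all tested probes were called (5.82% lower). Their median difference was -0.31, against -0.05 for all tested probes. The same 3 passed an unadjusted p of 0.05, which 30.7% of all tested probes did. Between DSS + MTA and DSS 1 probe was called, Cldn7, while 0.358% of all tested probes were called (0.0623% higher and 0.296% lower). At an unadjusted p of 0.05, which 14.5% of all tested probes passed, Cldn3 was added. The median over the 11 probes was -0.11, against 0.01 over all tested probes. Between DSS + MTA and Control 0 of the 11 probes were called by limma (1, Cldn4, had an unadjusted p under 0.05, as did 20.8% of all tested probes), while 4.79% of all tested probes were called (2.89% higher and 1.90% lower). Their median was -0.07, against -0.02 over all tested probes. In each comparison 1 probe did not overlap between the groups, Cldn7 in the first 2 and Cldn2 in the last, against 15.2%, 0.848% and 7.90% of all tested probes. The 3 comparisons share arrays and are not independent of each other.

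**Figure D3:**
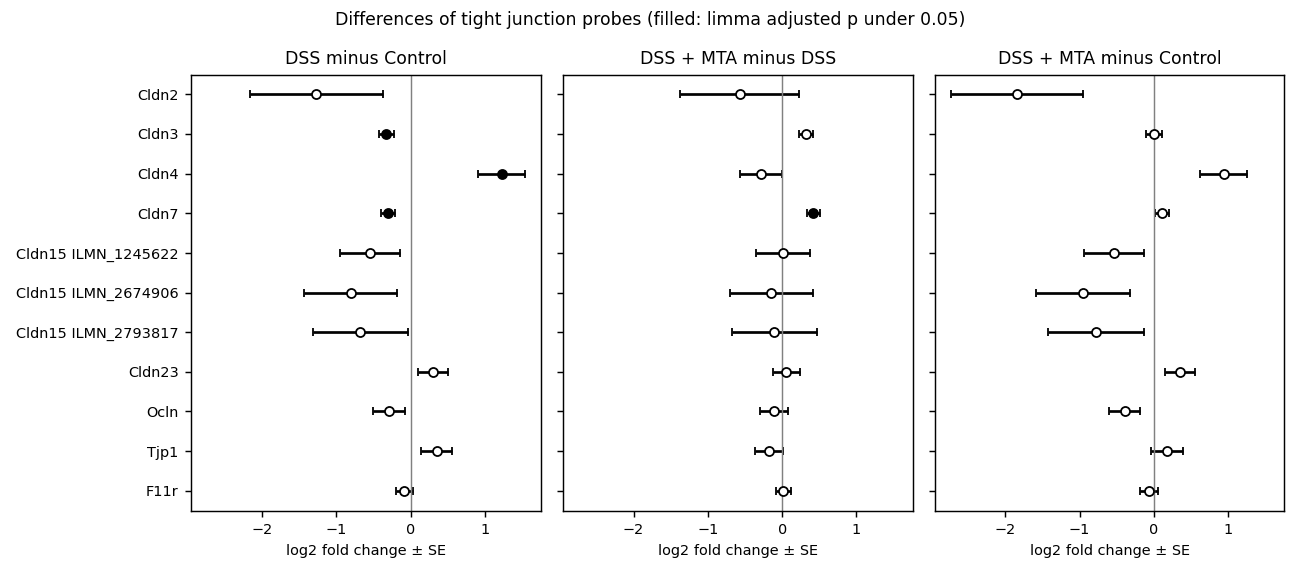
Difference of group means in log2 intensity with its SE (horizontal axis) for each of the 11 tested probes, for DSS minus Control, DSS + MTA minus DSS and DSS + MTA minus Control. Filled points mark a limma adjusted p under 0.05: Cldn3, Cldn4 and Cldn7 between DSS and Control and Cldn7 between DSS + MTA and DSS.

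Among the other claudins, 12 of which were on the array, 4 were tested and 0 were called by limma in any comparison. Over all tested probes 13.8% were called for DSS against Control, 0.358% for DSS + MTA against DSS and 4.79% for DSS + MTA against Control. Cldn12 differed by -0.26 ± 0.13 and Cldn10 by 0.55 ± 0.28 between DSS and Control (limma adjusted p = 0.191 and 0.194). Cldn9 differed by 0.25 ± 0.07 between DSS + MTA and DSS (adjusted p = 0.124), and Cldn1, a barrier claudin of skin, by 0.21 ± 0.25 between DSS and Control (adjusted p = 0.597).

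Of 9 tested other membrane proteins of the junction, 2 were higher and 1 was lower in DSS than in Control. Lsr, which recruits tricellulin to the corners where 3 cells meet, read 8.34, 9.29, 7.80, 8.12, 7.91 and 7.53 in DSS + MTA, 7.87, 7.42, 7.08, 8.48, 8.15 and 7.80 in DSS and 8.25, 8.87, 9.35 and 9.53 in Control. DSS replicate 4 was the one DSS array above the lowest Control array. Lsr fell by 1.20 ± 0.33 in DSS against Control (limma adjusted p = 0.0264). Ildr1, its relative at the same corners, read between 11.09 and 11.60 in DSS and between 10.87 and 11.20 in Control and rose by 0.44 ± 0.11 (adjusted p = 0.0136). In DSS + MTA, Ildr1 rose by 0.47 ± 0.11 against Control (adjusted p = 0.0220). Esam, an adhesion molecule of endothelial junctions, rose by 1.10 ± 0.28 in DSS (adjusted p = 0.0180). Of 7 tested endothelial markers 5 were called higher in DSS as well, and all 7 had a higher mean there than in Control. The mean of these markers ran from 8.48 to 9.01 in DSS and from 7.95 to 8.15 in Control. Their part in the Esam result was not tested. Crb3, an apical polarity protein, differed by 0.40 ± 0.09 between DSS + MTA and DSS without being called (limma adjusted p = 0.0632). Its 6 DSS + MTA arrays, at 7.57 to 7.98, lay above its 6 DSS arrays, at 7.13 to 7.46. Non-overlap between these groups was found in 0.848% of all tested probes. With 1 array left out, the Lsr call was lost without DSS replicate 2 (-1.12, adjusted p = 0.0544), Control replicate 3 (-1.08, 0.0885) or Control replicate 4 (-1.02, 0.0897). The Esam call was lost without Control replicate 1 (1.01, adjusted p = 0.0554) and with the epithelial marker mean subtracted (0.998, 0.0523). The Ildr1 call of DSS was lost without Control replicate 3 (0.40, adjusted p = 0.0532), and that of DSS + MTA without Control replicates 2, 3 or 4 (0.43 to 0.46, adjusted p 0.0583 to 0.0821) or with the epithelial mean subtracted (0.32, 0.0635).

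In the scaffold and polarity list 15 genes were tested. Pard6a, an adaptor of the apical polarity complex, fell by 0.42 ± 0.07 in DSS against Control (limma adjusted p = 0.00207). Its 6 DSS arrays read 8.10 to 8.38 and its 4 Control arrays 8.59 to 8.78, without overlap. Between these groups 15.2% of all tested probes did not overlap. Mpdz, a multi-PDZ scaffold, rose by 0.52 ± 0.15 (adjusted p = 0.0346). Mpp5, which links the Crumbs and zonula occludens complexes, rose by 0.57 ± 0.13 in DSS + MTA against Control (adjusted p = 0.0239). Among 9 tested adherens junction and desmosome genes 0 were called by limma in any comparison, where 13.8% of all tested probes were called between DSS and Control. E-cadherin (Cdh1) differed by 0.14 ± 0.13 between DSS and Control (adjusted p = 0.470), and Dsg2, a desmosomal cadherin, by 0.34 ± 0.16 (adjusted p = 0.157). The Mpdz call was lost without DSS replicates 2, 3 or 4 or Control replicates 2, 3 or 4 (0.43 to 0.54, adjusted p 0.0503 to 0.1003). It was lost too in 4 of 14 other settings, with the epithelial mean as a covariate or subtracted and with the smooth muscle or colon position mean as a covariate (0.35 to 0.48, adjusted p 0.0576 to 0.103). The Mpp5 call was lost without DSS + MTA replicate 5, Control replicate 1 or Control replicate 3 (0.48 to 0.56, adjusted p 0.0521 to 0.101). It was lost too with the epithelial mean subtracted (0.42, 0.103) and without the 4 arrays low in colon position genes (0.55, 0.0812).

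Of 21 tested junction regulators 4 were called between DSS and Control, 2 higher and 2 lower, where 13.8% of all tested probes were called, and 0 by limma in the other comparisons. Zeb1, a repressor of epithelial genes that stroma also expresses, rose by 0.94 ± 0.22 (limma adjusted p = 0.0111), and Twist1, a mesenchymal transcription factor, rose by 0.38 ± 0.10 (adjusted p = 0.0190). Ovol2, an epithelial transcription factor, fell by 0.96 ± 0.21 (adjusted p = 0.00768), and Stk39, a kinase of ion transport, fell by 0.46 ± 0.12 (adjusted p = 0.0234). Ovol2 ran from 7.77 to 8.88 in DSS and from 8.81 to 9.41 in Control, so 1 DSS array overlapped. Beside these, 4 of 8 fibroblast markers were called higher in DSS, and all 8 had a higher mean there than in Control. The mean of the 8 markers ran from 9.75 to 11.13 in DSS and from 8.66 to 9.36 in Control. Their part in the Zeb1 and Twist1 results was not tested. The Stk39 call was lost without DSS replicate 4, Control replicate 2 or Control replicate 4 (-0.43 to -0.37, adjusted p 0.05002 to 0.0866), and the Twist1 call without Control replicates 3 or 4 (0.37 and 0.32, adjusted p = 0.0576 and 0.0731). Both were lost without the 4 arrays low in colon position genes (-0.44 and 0.31, adjusted p = 0.0529 and 0.0502), Stk39 also with the smooth muscle covariate (-0.41, 0.0568) and Twist1 with the epithelial mean subtracted (0.28, 0.1502). The Zeb1 and Ovol2 calls, and that of Pard6a above, were kept in all 16 fits without 1 array and in every other setting run.

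**Figure D4:**
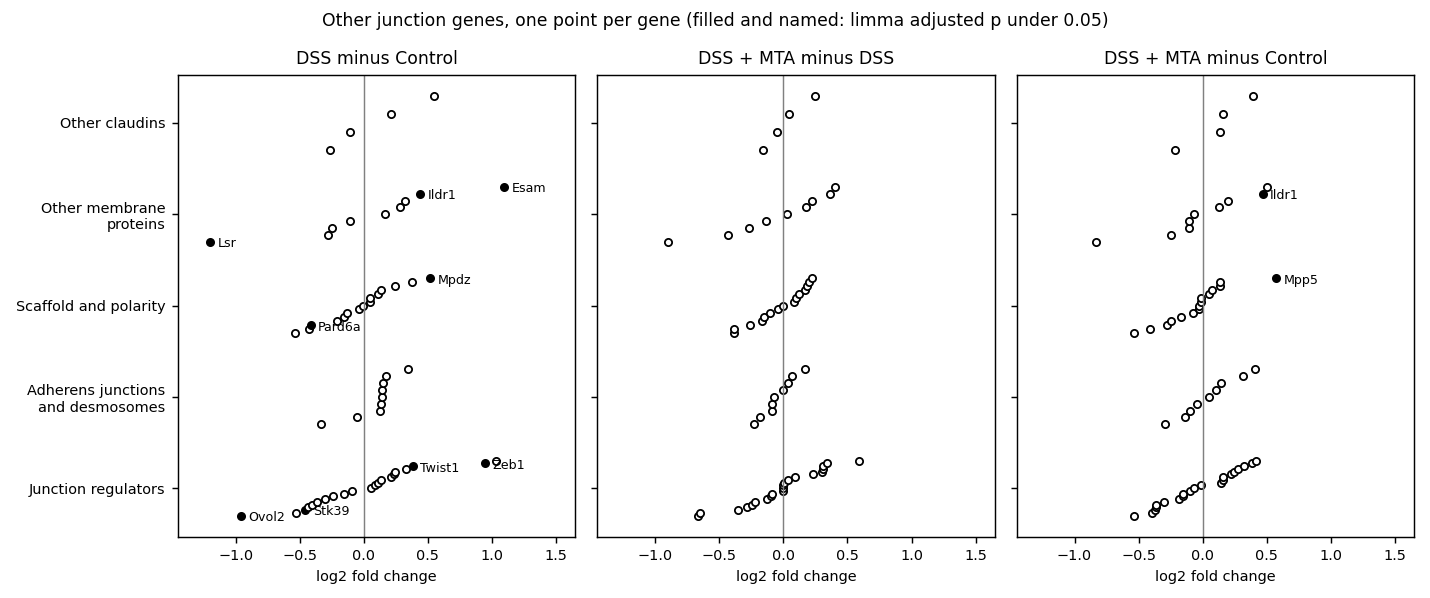
Difference of group means in log2 intensity (horizontal axis) of the tested genes of 5 other junction lists, for DSS minus Control, DSS + MTA minus DSS and DSS + MTA minus Control, with 1 point per gene. Filled, named points have a limma adjusted p under 0.05 and run from Lsr at -1.20 to Esam at 1.10.

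The genes whose levels followed each of these most closely over the 16 arrays were found by Pearson correlation with the brightest tested probe of every gene, and the values share array, extraction and group differences. For Cldn2 they were Cftr, the chloride channel (r = 0.958), and Slc51a, a bile acid transporter (0.947), at 0.958 and 0.953 within groups. Without the 4 low arrays they were 0.606 and 0.111. For Cldn15 they were Cftr (0.976, and 0.823 without the 4 arrays) and Dnaja3, a mitochondrial chaperone (0.961, and 0.785). Cldn4 lay nearest to Clca4a (0.882), whose family is named for calcium-activated chloride channels, and to Ffar4, a fatty acid receptor (0.877). These were 0.798 and 0.739 within groups. Cldn7 lay nearest to Slc24a1 (0.885) and Atpsckmt (0.856), and within groups at 0.631 and 0.830.

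Cldn3 lay nearest to the histone genes H2bc14 (r = 0.887) and H2bc9 (0.869), which belong to a family of near-identical copies that a probe may not separate. Ocln lay nearest to Zmym5 (0.923) and Scin, an actin-severing protein (0.916). Tjp1 lay nearest to Ddx3x (0.898), an RNA helicase, and Cdh1 (0.894), the E-cadherin of the neighbouring adherens junction. Cldn23 lay nearest to Bnip5 (0.858) and Gtpbp2 (0.839), and F11r to Slc22a23 (0.893) and Abhd1 (0.821). Within groups the values for Cldn3 were lower, at 0.739 and 0.711, and those for Ocln, Tjp1, Cldn23 and F11r ran from 0.818 to 0.947.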

How the data were processed

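Deposited intensities of 25697 probes on 16 Illumina arrays were used. The deposited values are intensities on a linear scale. The labels and file headers name no software, background step or normalization, but array medians of 112.012 to 112.22 show that the authors had put the arrays on one scale. The lowest deposited intensity was 42.017, so differences of dim probes are understated. Log2 was taken without further normalization. A table of un-normalized signals, with 32 columns named by array position, was given to no sample and was not used, so detection p-values and slides were not used. The number of arrays limits the precision.

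The platform annotation gave 1 gene to 23978 probes, none to 1719 and several to 0, and all 13 probes of the genes described were found in RefSeq GRCm38.p6 by gene ID. A probe was tested if its mean was among the upper 50%. The test was limma 3.58.1 under R 4.3.3, by lmFit with eBayes (one mean for each of 3 groups, 16 arrays) with Benjamini-Hochberg adjustment over the 12848 tested probes. The fit was tested on simulated data. Marker means were compared with exact permutation tests. Groups and replicate numbers came from the sample titles. Same-numbered samples did not deviate together in every pair (2 of 4, 3 of 6 and 2 of 4 pairs had a correlation over 0.1). The correlations ran from -0.088 to 0.365 for DSS against Control, from 0.013 to 0.629 for DSS + MTA against DSS and from -0.318 to 0.416 for DSS + MTA against Control. They do not decide whether the numbers pair samples. The main fit took the samples as unpaired, and the replicate number as a block was an alternative. The genes described, the other gene lists and the tests were chosen with earlier results of these data known. In each other list, the up to 4 genes with the smallest p in each comparison could be named, and every called one, and for each gene described the 2 with the highest correlation. Alternatives changed the filter, normalization, background, variance model, samples, blocks and covariates.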

Additional observations from a re-analysis of the deposited data

Results flagged for a closer look

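Among 42 groups of 4 to 6 arrays, taken over the 13 probes and the epithelial marker mean, 1 held an array far from the rest, where chance alone is set to mark about 1 group in 20. Cldn7 in Control replicate 2 read 10.48 on the log2 scale, and the nearest of the other 3 Control arrays read 10.32. The gap was 0.841 of the range of the group, against a critical value of 0.829. Without this array the Cldn7 difference between DSS and Control was not called (limma), as in 8 other fits without 1 array.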

How the results depend on the processing

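The sign of no called difference of the genes described changed under any alternative run. The number of their probes called between DSS and Control was 3. It became 1 with a background constant subtracted or with the replicate number as a block. With the smooth muscle marker mean as a covariate it became 0, and with 1 array left out it ran from 0 to 3. It became 2 with all probes tested, with an intensity trend and robust prior, with only the 2 groups fitted and with replicate numbers in 2 sets. With the epithelial marker mean as a covariate or subtracted, or the colon position mean as a covariate, it was also 2. Between DSS + MTA and DSS (1) it became 0 with the upper 25% of probes, with the background subtracted, with only the 2 groups fitted, with replicate numbers in 2 sets as a block, with the epithelial marker mean as a covariate or subtracted, and without the 4 arrays low in colon position genes (added after seeing the data), and ran from 0 to 1 with 1 array left out; under the replicate block it stayed at 1. Between DSS + MTA and Control (0) it became 1 with array weights (Cldn4, 1.06, limma adjusted p = 0.0320) and stayed at 0 with any array left out. The cause of these changes was not tested. The replicate block gave 288 calls over all probes between DSS + MTA and DSS, against 46. It also ended the Lsr call of DSS against Control (-1.13, limma adjusted p = 0.0554). The epithelial marker mean difference ran from 0.0445 to 0.188 (DSS against Control), from 0.0131 to 0.0853 (DSS + MTA against DSS) and from 0.0987 to 0.242 (DSS + MTA against Control) with 1 array left out, the highest being without Control replicate 1 (exact permutation p = 0.0119). Counts over all probes ran from 949 to 2112 with 1 array left out between DSS and Control (1776), from 0 to 244 between DSS + MTA and DSS (46) and from 181 to 905 between DSS + MTA and Control (615). Other settings gave 999 (upper 25%) and 3198 (array weights) for the first, 12, 28 (background), 217 (weights), 0 (2 groups), 23 (epithelial mean subtracted), 449 (smooth muscle), 219 (colon position) and 529 (without the 4 arrays) for the second, and 386, 1348, 384 and 308 for the third under the upper 25%, weights, 2 groups and without the 4 arrays. Subtracting the epithelial mean moved the median over all probes to -0.15 (DSS against Control) and -0.17 (DSS + MTA against Control). Near the floor of the array, as for Cldn8, a fall is hidden and a rise understated.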
